A study of Mus musculus with 9 samples.

Results

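Integrins and laminins were described here in sclerotome micromass cultures that had been left untreated or exposed to BMP4 or TGF-β1. The members were all probe sets of the array whose only gene symbol names an integrin α subunit (Itga followed by a number or by E, L, M, V or X), an integrin β subunit (Itgb and a number) or a laminin chain (Lama, Lamb or Lamc and a number). This rule took 73 probe sets for 34 genes out of 45037 probe sets for 18193 genes. Of them, 36 probe sets belonged to 16 α subunit genes, 18 to 8 β subunit genes and 19 to 10 laminin genes.

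An integrin is a receptor of 1 α and 1 β subunit that spans the cell membrane, binds matrix proteins outside the cell and couples through adaptor proteins to the actin cytoskeleton inside it. A laminin is a trimer of an α, a β and a γ chain, and laminins form the sheet on which a basement membrane is built together with nidogen, type IV collagen and perlecan. The myotome next to the sclerotome rests on such a sheet, and integrins that hold the αv subunit can release active TGF-β from its latent complex.

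Sclerotome, the compartment of the somites from which vertebrae and discs develop, was taken from E11.5 mouse embryos ventral to the neural tube after the notochord had been removed, and was plated as dense drops of dissociated cells. The 9 cultures were 3 untreated, 3 with BMP4 at 50 ng/ml and 3 with TGF-β1 at 5 ng/ml, and RNA was taken after 8 hours of exposure. The study's text calls the embryos wild type, and the sources used here give no strain. The labels place the addition of the factors after an overnight culture, while the methods place it after 1 hour of attachment.

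Each culture was hybridised to 1 Affymetrix mouse genome array after 2 rounds of amplification from the 3′ end. The deposited log2 values had been centred on the median of the 9 arrays for every probe set, so they give differences between arrays and not levels. It could therefore not be read from them which integrins were abundant, which were below background, or whether the cultures expressed the defining genes of sclerotome. The arrays numbered 2 stood apart: their deviations from the group means correlated with one another at 0.49 to 0.50 over all probe sets, and calls of members, and of genes named from the 3 lists of partner genes, that were lost without these 3 arrays are given below. In bulk RNA, fewer cells of a type and less RNA per cell cannot be told apart. "Called" means a Benjamini-Hochberg adjusted p under 0.05 in limma over all 45037 probe sets. Unless a replicate block is named, the fit did not pair same-numbered arrays.

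BMP4 lowered integrin and laminin probe sets and raised none. It lowered 10 of the 73 members, 13.7%, against 5.44% of all probe sets called in either direction, of which 3.13% were lower and 2.31% were higher. These 10 were 3 of 36 for α subunits, 5 of 18 for β subunits and 2 of 19 for laminins, from 6 genes: Itgb5, Itgb6, Itga4, Itga9, Lama4 and Lamb1. Of the 5 for β subunits, 4 were probe sets of the 1 gene Itgb5. With each gene taken by its probe set of largest variance, 6 of 34 genes were lower, 17.6%, against 7.96% of all genes called in either direction. No member was called higher by limma, 2 were higher at an unadjusted p under 0.05, and the unequal-variance test found 1 higher at that level. The median difference of the 73 members was -0.03 on the log2 scale, against 0.00 over all probe sets, and the differences ran from -1.02 to 0.33. The BMP4 and untreated arrays did not overlap for 20 members, 17 of them lower, where 20% of all probe sets showed no overlap. With the arrays numbered 2 left out, 5 members were called lower and none higher.

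With TGF-β1, members were called in both directions, at a share near that of all genes. TGF-β1 raised 2 probe sets and lowered 3, together 6.85% of the members against 4.43% of all probe sets, of which 1.83% were higher and 2.6% lower. All 5 belonged to Itga9, Itga4 and Lama4. With each gene taken by its probe set of largest variance, 1 gene was higher and 2 were lower. These were 3 of 34 genes, 8.82%, against 6.75% of all genes called in either direction. No β subunit was called by limma without a replicate block, and 3 of their 18 probe sets differed at an unadjusted p under 0.05. The median difference was 0.04 on the log2 scale, against 0.01 over all probe sets, with a range from -0.78 to 0.70. The arrays did not overlap for 26 members, 16 higher and 10 lower, where 21.8% of all probe sets showed no overlap. No member was called higher without untreated 1 or 3 or TGF-β1 1 or 3, and 1 was without untreated 2, BMP4 1, BMP4 3, TGF-β1 2 or all arrays numbered 2. That 1 was an Itga9 probe set without untreated 2, BMP4 1 or BMP4 3, and Itgb3 1455257_at, not called on all 9 arrays, without TGF-β1 2 or the arrays numbered 2, where both Itga9 calls were lost. Of the 73 members, 1 was called lower without untreated 1 or without the arrays numbered 2. With the replicate number as a block, 6 members were higher and 3 lower, where 8.95% of all probe sets were called. Itgb3 1455257_at was among the 6.

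Setting the 2 factors against each other directly gave 8 members called higher with TGF-β1 than with BMP4 and none called lower, 11% of the members against 6.91% of all probe sets. Of all probe sets, 3.41% were higher and 3.49% were lower. The 8 were 4 probe sets of Itgb5, 2 of Itga9, and 1 each of Lamb1 and Lama5, so they are not 8 separate genes. With each gene taken by its probe set of largest variance, 3 of 34 genes were called, 8.82%, and the share over all genes is not given here. At an unadjusted p under 0.05, limma found 22 members higher and 2 lower, and the unequal-variance test 10 higher and 1 lower. No share over all probe sets was taken for counts at an unadjusted p, so these counts have nothing to be set against. The arrays did not overlap for 21 members, 19 of them higher with TGF-β1, where 25.5% of all probe sets showed no overlap. Lamb2 was called lower with TGF-β1 without untreated array 2 or without untreated array 3. With the replicate number as a block, 17 members were higher and 1 lower with TGF-β1, where 11.7% of all probe sets were called. All 3 comparisons use the same 9 arrays, so the differences from untreated share their control arrays and are given side by side only.

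**Figure D1:**
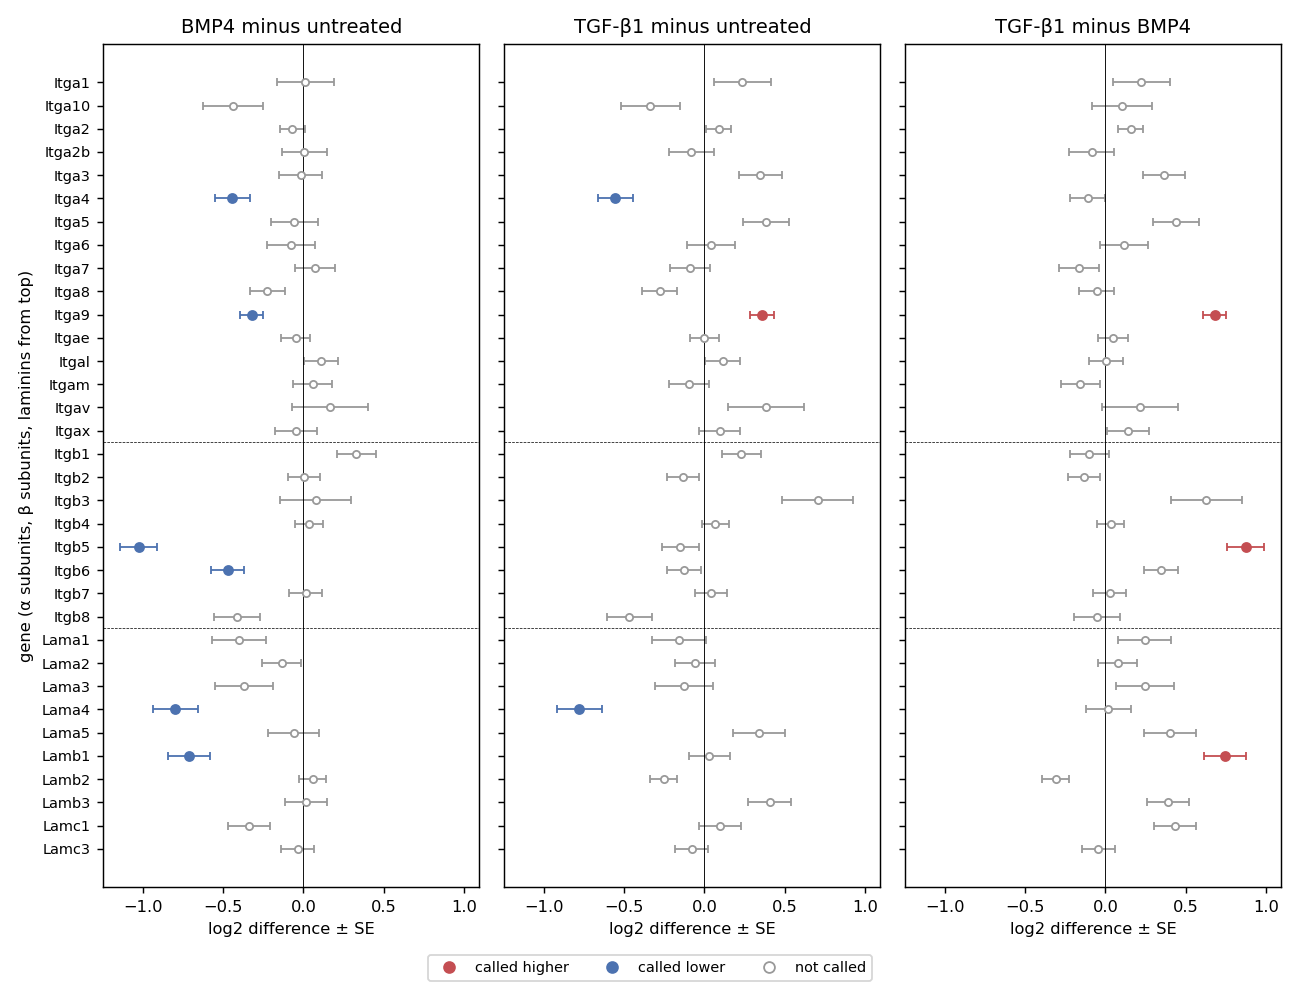
Log2 difference ± standard error of the 34 member genes in the 3 comparisons, each gene by its probe set of largest variance over the 9 arrays, 3 arrays a group; filled points were called. With BMP4 the filled points all lie left of 0, with Itgb5 lowest at -1.02, while with TGF-β1 Itga9 lies right of 0 and Itga4 and Lama4 lie left of it.

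Itgb5 encodes the β5 subunit, which pairs with αv to bind vitronectin. Its 4 probe sets all fell with BMP4. For 1417533_a_at the values were 0.13, 0.21 and 0.16 in the untreated arrays, -0.72, -1.15 and -0.71 in the BMP4 arrays, and 0.08, -0.03 and 0.00 in the TGF-β1 arrays. Every BMP4 array lay far below every other array, and the TGF-β1 arrays lay just below the untreated ones. The difference from untreated with BMP4 was -1.02 ± 0.115 (SE) on the log2 scale, a 2.03-fold fall with adjusted p = 0.000903 in limma, and it was the only called member difference of at least 2-fold. The other 3 probe sets, 1417534_at, 1456133_x_at and 1456195_x_at, fell by 0.86, 0.90 and 0.84.

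With TGF-β1 the 4 Itgb5 differences from untreated were -0.15, -0.07, -0.08 and -0.06, with adjusted p from 0.532 to 0.817, none of them called. TGF-β1 arrays were above BMP4 arrays by 0.87 ± 0.115 for 1417533_a_at, 1.83-fold with adjusted p = 0.00152, and the other 3 probe sets were called in the same direction. No single left-out array ended any of these 8 Itgb5 calls. With the arrays numbered 2 left out, the BMP4 difference of 1417533_a_at was -0.85 with adjusted p = 0.00454.

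Itgb6 encodes the β6 subunit, a partner of αv on epithelial cells that activates latent TGF-β. Its probe set 1422983_at had values of 0.00, 0.09 and 0.12 untreated, -0.19, -0.58 and -0.43 with BMP4, and 0.01, -0.18 and 0.01 with TGF-β1. The BMP4 arrays lay below all untreated arrays and just below the lowest TGF-β1 array. It fell by 0.47 ± 0.105 with BMP4, 1.39-fold with adjusted p = 0.0289. The call was lost without any 1 of 5 arrays (untreated 1, 2 and 3, BMP4 2 and 3), with adjusted p from 0.0603 to 0.107, and without the arrays numbered 2, at 0.178. Its second probe set, 1432281_a_at, differed by -0.21 and was not called. TGF-β1 stood above BMP4 by 0.35, with adjusted p = 0.0853, or 0.0497 with the replicate number as a block.

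Itga4 encodes the α4 subunit, which binds VCAM1 and fibronectin on blood cells and on many embryonic cells. Of its 5 probe sets, 2 fell with both factors. For 1436037_at the untreated values were 0.52, 0.45 and 0.28, the BMP4 values -0.14, 0.00 and 0.02, and the TGF-β1 values -0.10, -0.08 and -0.07. For 1456498_at they were 0.43, 0.24 and 0.43 untreated, -0.17, -0.15 and 0.09 with BMP4, and -0.28, -0.28 and 0.00 with TGF-β1. In both probe sets every treated array lay below every untreated array, and the 2 treatments overlapped.

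Itga4 1436037_at fell by 0.46 ± 0.084 with BMP4, 1.37-fold with adjusted p = 0.0116, and by 0.50 with TGF-β1, 1.42-fold with adjusted p = 0.0103. Itga4 1456498_at fell by 0.44 ± 0.109 with BMP4 (adjusted p = 0.044) and by 0.55 with TGF-β1 (adjusted p = 0.0205). The other 3 probe sets were not called with either factor, and their differences ran from -0.33 to 0.02. Neither probe set was called with either factor without the arrays numbered 2, at differences from -0.57 to -0.46 and adjusted p from 0.0939 to 0.155. Leaving out BMP4 array 1 ended the BMP4 call of 1436037_at at 0.0511. For 1456498_at the BMP4 call was lost without untreated 1 or 3, BMP4 1 or 2, or TGF-β1 1 or 2 (0.0571 to 0.158), and the TGF-β1 call without untreated 1 or 3 or TGF-β1 1 or 2 (0.0520 to 0.0824).

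Markers of erythroid cells, a blood lineage, were highest in some of the untreated arrays and not in all. The embryonic globin Hbb-bh1 had values of 1.67, -0.18 and 1.70 untreated, from -0.53 to 0.28 with BMP4, and from -0.77 to 0.11 with TGF-β1. For Hbb-bh1, untreated array 2 lay among the treated arrays. It was the lowest untreated array there and for Itga4 1456498_at, but not for Itga4 1436037_at. Averaged over the 5 erythroid markers measured, the untreated arrays ran from -0.15 to 1.02, the BMP4 arrays from -0.33 to 0.08 and the TGF-β1 arrays from -0.39 to 0.05. None of the 5 was called by limma with either factor, 4 were lower with BMP4 and 3 with TGF-β1 at an unadjusted p under 0.05, and their part in the Itga4 values was not tested.

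The 250 bases before the annotated start of 3 integrin genes that BMP4 lowered are shown because they are the called integrin genes for which the RefSeq promoter table used here holds a window at the outermost start of the gene. They are on GRCm38.p6, for Itgb5 chr16:33829415-33829664 on the plus strand, for Itga4 chr2:79255176-79255425 on the plus strand and for Itgb6 chr2:60722604-60722853 on the minus strand. Each is written 5′ to 3′ in the direction of its gene, and capitals mark CAGAC, the Smad binding element, on either strand (GTCTG on the other).
Itgb5: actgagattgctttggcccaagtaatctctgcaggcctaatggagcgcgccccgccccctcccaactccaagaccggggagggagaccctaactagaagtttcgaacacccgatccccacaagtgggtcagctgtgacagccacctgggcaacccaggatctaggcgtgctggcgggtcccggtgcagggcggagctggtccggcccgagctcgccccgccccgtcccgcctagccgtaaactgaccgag
Itga4: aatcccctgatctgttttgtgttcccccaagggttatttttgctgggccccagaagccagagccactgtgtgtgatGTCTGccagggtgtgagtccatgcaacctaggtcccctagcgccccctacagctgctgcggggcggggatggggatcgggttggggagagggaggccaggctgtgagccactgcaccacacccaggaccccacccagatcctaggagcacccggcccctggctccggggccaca
Itgb6: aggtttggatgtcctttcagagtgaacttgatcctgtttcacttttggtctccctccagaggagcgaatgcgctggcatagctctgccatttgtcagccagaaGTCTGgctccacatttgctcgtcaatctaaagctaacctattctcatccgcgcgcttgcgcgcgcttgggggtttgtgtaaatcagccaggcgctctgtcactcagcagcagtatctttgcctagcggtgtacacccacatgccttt

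CAGAC stood once in the Itga4 window, once in the Itgb6 window and not in the Itgb5 window, while 42.2% of all 32841 windows of this length hold it. Of the 11 member genes with a window at the outermost start, 6 held CAGAC and 1 held GGCGCC, which 9.59% of all windows hold. None of the 11 held GTCTAGAC, the palindromic Smad site, or TGANTCA, the AP-1 site, which 0.167% and 6.75% of all windows hold. The Itgb5 window had 65.2% G and C, Itga4 64% and Itgb6 52%, beside a median of 52.4% over all windows. A match of letters is a description only, and no protein binding was measured in these cultures.

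Itga9 encodes the α9 subunit, a partner of β1 that binds tenascin-C and VEGF-C. Its probe set 1460285_at went down with BMP4 and up with TGF-β1. The values were 0.07, 0.00 and -0.02 untreated, -0.39, -0.21 and -0.33 with BMP4, and 0.35, 0.38 and 0.38 with TGF-β1. The 3 groups did not overlap, with BMP4 lowest and TGF-β1 highest. The difference was -0.32 ± 0.073 with BMP4 (adjusted p = 0.0309), 0.36 with TGF-β1 (adjusted p = 0.0245) and 0.68 between the factors, 1.60-fold with adjusted p = 0.000476.

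A second probe set of Itga9, 1450029_s_at, rose with TGF-β1 and showed no fall with BMP4. Its values were -0.02, 0.06 and -0.26 untreated, -0.08, 0.00 and -0.18 with BMP4, and 0.52, 0.41 and 0.25 with TGF-β1. The TGF-β1 arrays lay above all others, and the untreated and BMP4 arrays overlapped. TGF-β1 raised it by 0.47 ± 0.106 from untreated, 1.38-fold with adjusted p = 0.0367, and by 0.48 from BMP4, with adjusted p = 0.0233, while BMP4 and untreated differed by -0.01. The third, 1420860_at, was not called, and the Itga9 probe sets thus disagree on the BMP4 difference. Averaged over the 3 probe sets, the BMP4 difference was -0.08 (adjusted p = 0.519), the TGF-β1 difference 0.33 (0.0105) and the difference between the factors 0.41 (0.00197).

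The Itga9 call between the factors for 1460285_at held without each single array and without the arrays numbered 2, at 0.72 with adjusted p = 0.00722. Its BMP4 call was lost without untreated 1, 2 or 3, BMP4 1 or 3, or TGF-β1 1 (0.0522 to 0.117), its TGF-β1 call without any of the untreated or TGF-β1 arrays (0.0538 to 0.0802), and both without the arrays numbered 2 (0.0994 and 0.132). For 1450029_s_at the TGF-β1 call was lost without any 1 array except untreated 2 and BMP4 2 (0.0502 to 0.126), the call between the factors without BMP4 1 or 3 or TGF-β1 1 or 2 (0.0737 to 0.0861), and both without the arrays numbered 2 (0.109 and 0.0938).

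Among the laminins, Lama4 fell with both factors. It encodes the α4 chain, found in basement membranes of vessels and of mesenchyme. The probe set 1424807_at had values of 0.65, 0.82 and 0.50 untreated, -0.01, -0.31 and -0.10 with BMP4, and 0.00, -0.42 and 0.06 with TGF-β1. All 6 treated arrays lay well below the 3 untreated arrays, and the 2 treatments overlapped, with the array numbered 2 lowest in each. The fall was 0.80 ± 0.141 with BMP4, 1.74-fold with adjusted p = 0.00946, and 0.78 with TGF-β1, 1.71-fold with adjusted p = 0.0147, and the factors differed by 0.02.

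The Lama4 call with TGF-β1 was lost without untreated array 1 or 2, at adjusted p = 0.0511 and 0.0515. The differences without the arrays numbered 2 were -0.63 with BMP4 (0.0234) and -0.55 with TGF-β1 (0.0484). The second probe set, 1424808_at, differed by -0.58 ± 0.208 with BMP4 (adjusted p = 0.172) and by -0.55 with TGF-β1 (adjusted p = 0.19), and its untreated values of 0.00, 0.78 and 0.54 overlapped those of the treated arrays. Of 7 endothelial markers none was called by limma with either factor and 1 was higher with BMP4 at an unadjusted p under 0.05. Their mean ran from -0.06 to 0.13 in untreated arrays, from 0.00 to 0.04 with BMP4 and from -0.06 to 0.00 with TGF-β1, and their part in the Lama4 values was not tested.

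Lamb1 encodes the β1 chain shared by most embryonic laminins. Its probe set 1451241_at had values of 0.00, 0.18 and 0.25 untreated, -0.31, -0.69 and -0.71 with BMP4, and 0.22, -0.01 and 0.32 with TGF-β1. The BMP4 arrays lay below all 6 others, and the untreated and TGF-β1 arrays overlapped. It fell by 0.71 ± 0.129 with BMP4, 1.64-fold with adjusted p = 0.0108, and differed by 0.03 with TGF-β1 (adjusted p = 0.93). TGF-β1 arrays were higher than BMP4 arrays by 0.74, 1.67-fold with adjusted p = 0.00731.

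The Lamb1 difference with BMP4 was -0.63 without the arrays numbered 2, with adjusted p = 0.101, and the difference between the factors was 0.78 with adjusted p = 0.0401. Of the other Lamb1 probe sets, 1424114_s_at differed by -0.69 with BMP4 (adjusted p = 0.0624) and 1424113_at by -0.55 (adjusted p = 0.173). The fourth, 1446180_at, differed by -0.03. In 1424114_s_at and 1424113_at the BMP4 arrays also lay below all untreated arrays, with BMP4 array 2 lowest.

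Lama5 encodes the α5 chain, and Lamc1 the γ1 chain that most laminins share. For Lama5 1427010_s_at the values were 0.00, -0.08 and 0.04 untreated, -0.09, -0.44 and -0.43 with BMP4, and 0.18, 0.26 and 0.25 with TGF-β1. The TGF-β1 arrays were highest and the BMP4 arrays lowest, with no overlap between any groups. The factors differed by 0.55 ± 0.099, 1.46-fold with adjusted p = 0.00877, whereas neither differed from untreated past the threshold (-0.31, adjusted p = 0.124, with BMP4 and 0.24, adjusted p = 0.225, with TGF-β1). Without the arrays numbered 2 the difference between the factors was 0.47 with adjusted p = 0.107. The Lama5 probe set of largest variance, 1427009_at, differed by -0.06 with BMP4 (adjusted p = 0.914) and by 0.40 between the factors (adjusted p = 0.193). Another, 1459614_at, differed by -0.05 and 0.16 and was not called. The mean of the Lama5 probe sets differed between the factors by 0.37 (adjusted p = 0.0187).

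For Lamc1 1423885_at the values were 0.18, 0.00 and 0.01 untreated, -0.21, -0.54 and -0.08 with BMP4, and 0.22, -0.03 and 0.29 with TGF-β1. BMP4 arrays lay below all others. The difference between the factors was 0.43 with adjusted p = 0.0791, or 0.0179 with the replicate block, and the second probe set of Lamc1 differed by 0.20. Lamb2, the β2 chain that can replace β1, ran the other way, with TGF-β1 values of -0.27, -0.17 and -0.21 below all others and a difference from BMP4 of -0.31, with adjusted p = 0.0549, or 0.0407 with the block.

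**Figure D2:**
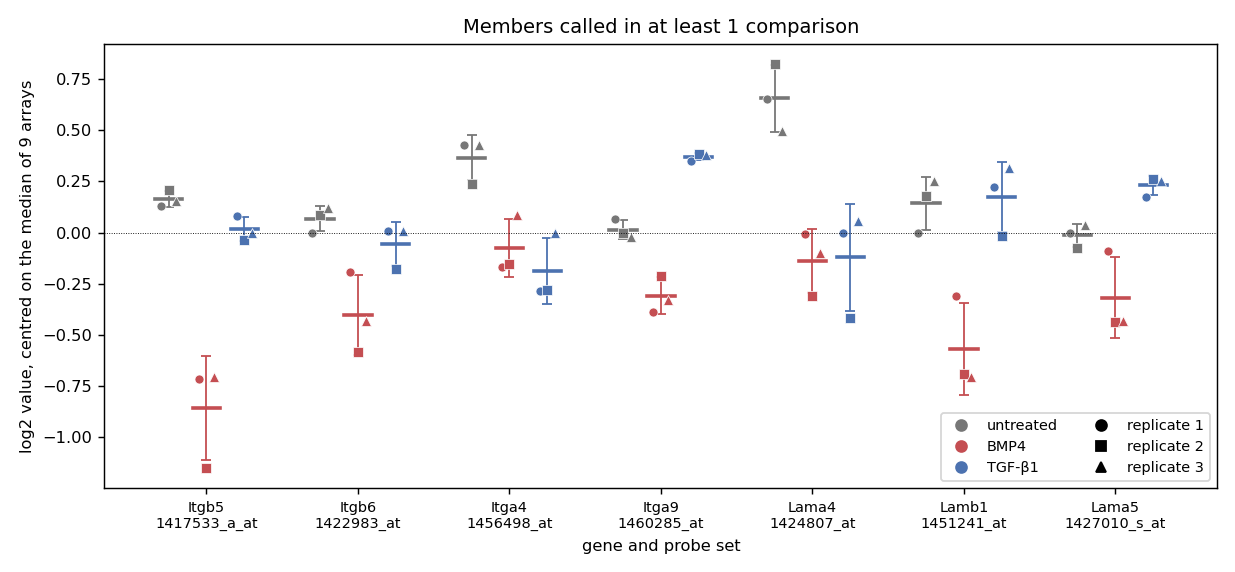
Centred log2 values on the 9 arrays for 1 called probe set of each of the 7 member genes called in any comparison, with the replicate number as marker shape, the group mean as a bar and ± 1 SD over 3 arrays. For Itgb5 and Lamb1 the BMP4 arrays lie below all others, for Itga4 and Lama4 both treatments lie below the untreated arrays, and for Itga9 1460285_at and Lama5 1427010_s_at the 3 groups do not overlap.

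Itgb3, Itga5 and Itgav, subunits of integrins that bind fibronectin and vitronectin, were called higher with TGF-β1 when the replicate number was a block, a fit in which same-numbered arrays are compared, and not without the block. Itgb3, the β3 subunit, had values of -0.16, -0.56 and 0.07 untreated, 0.06, -0.40 and -0.08 with BMP4, and 0.67, 0.00 and 0.79 with TGF-β1 for 1455257_at. The array numbered 2 was lowest in each group, so the groups overlapped, while within each number the TGF-β1 array was highest. TGF-β1 differed from untreated by 0.70 ± 0.222, 1.63-fold with adjusted p = 0.115, or 0.00471 with the block, and by 0.77 with adjusted p = 0.0236 without the arrays numbered 2. From BMP4 it differed by 0.63 (adjusted p = 0.139, or 0.00469 with the block). The other Itgb3 probe set, 1421511_at, differed from untreated by 0.14 with TGF-β1 (adjusted p = 0.483, or 0.398 with the block), and the mean of both by 0.42 (adjusted p = 0.0978).

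Itga5, the α5 subunit of the main fibronectin receptor, had 4 probe sets. For 1423267_s_at the values were 0.09, -0.35 and -0.02 untreated, -0.05, -0.40 and 0.00 with BMP4, and 0.43, 0.11 and 0.33 with TGF-β1. The TGF-β1 arrays lay above all others. The difference from untreated was 0.38 with adjusted p = 0.19, or 0.0144 with the block, and for 1423268_at it was 0.37 with adjusted p = 0.0661, or 0.0154 with the block. From BMP4 the 2 probe sets differed by 0.44 (0.115, block 0.00536) and 0.34 (0.0702, block 0.0159). The other 2 probe sets of Itga5 differed from untreated by 0.18 and 0.19.

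Itgav, the αv subunit, differed from untreated by 0.32 with TGF-β1 for 1452784_at, with adjusted p = 0.191, or 0.0215 with the block. Its values of 0.28, 0.04 and 0.26 with TGF-β1 lay above those of the untreated arrays, 0.00, -0.32 and -0.07, and of the BMP4 arrays. From BMP4 it differed by 0.30 (adjusted p = 0.198, or 0.0214 with the block). The other 4 probe sets of Itgav differed from untreated by 0.10 to 0.38 and were not called with or without the block. Itga3, the α3 subunit of a laminin receptor, differed between the factors by 0.37 for 1455158_at, with adjusted p = 0.149, or 0.0423 with the block.

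With the block, TGF-β1 raised 6 members and lowered 3 against untreated, and 17 members were higher and 1 lower than with BMP4, where 8.95% and 11.7% of all probe sets were called, and BMP4 lowered 11 against untreated, where 9.03% were called. The block also added the Lamb1 probe set 1424114_s_at, with adjusted p = 0.00836 for BMP4 against untreated and 0.0166 between the factors, and the Lama5 probe set 1427009_at, with 0.0458 between the factors. The same-numbered untreated and BMP4 arrays did not all deviate together, so the block bears on the other 2 comparisons.

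Among the genes with no called probe set, each taken by its probe set of largest variance, Itgb8 and Itga10 had the largest differences from untreated with BMP4. Itgb8, the β8 subunit and another activator of latent TGF-β, had values of 0.56, 0.55 and 0.00 untreated, -0.17, 0.04 and 0.01 with BMP4, and -0.03, -0.08 and -0.18 with TGF-β1. Untreated arrays 1 and 2 stood above all others, and untreated array 3 stood among the BMP4 arrays. The differences were -0.41 with BMP4 (adjusted p = 0.148) and -0.47 with TGF-β1 (adjusted p = 0.104). Itga10, the α10 subunit of a collagen receptor of cartilage, differed by -0.44 with BMP4 (adjusted p = 0.255), where untreated array 2 alone, at 0.86, stood over the others at 0.09 and 0.02. The Itga10 difference was -0.18 without the arrays numbered 2.

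Itgb1, the β1 subunit common to most matrix-binding integrins, had 6 probe sets, of which none was called by limma in any comparison and 2 were higher with BMP4 and 1 with TGF-β1 at an unadjusted p under 0.05. The values of 1426918_at were -0.16, -0.10 and -0.18 untreated, 0.33, 0.09 and 0.12 with BMP4, and 0.36, -0.11 and 0.00 with TGF-β1. BMP4 arrays lay above all untreated arrays, with a difference of 0.33 that was the highest of the 73 members and did not pass the test (adjusted p = 0.178). The leukocyte and platelet integrin genes Itgal, Itgam, Itgax, Itgae, Itga2b, Itgb2 and Itgb7 held 9 probe sets, with differences from untreated between -0.13 and 0.12 over both factors, none of them called by limma or below an unadjusted p of 0.05. Of 8 markers of macrophages and other leukocytes none was called by limma or below an unadjusted p of 0.05 with BMP4. With TGF-β1 1 of the 8, Cd68, fell, and 1 was higher and 4 lower at an unadjusted p under 0.05. Of 6 megakaryocyte markers 1 was higher with BMP4.

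**Figure D3:**
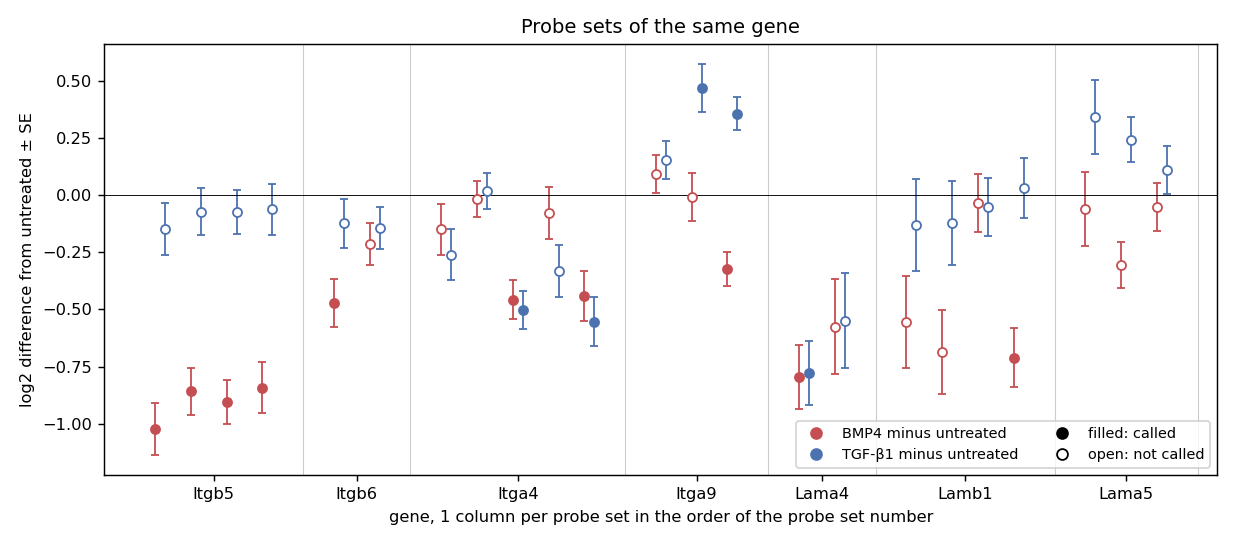
Log2 difference from untreated ± standard error for every probe set of the 7 member genes with a call, 3 arrays a group; filled points were called. The 4 Itgb5 probe sets lie close together from -1.02 to -0.84 with BMP4, while the probe sets of Itga4, Itga9 and Lamb1 spread between called and near 0.

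Genes that work with integrins and laminins were set beside them as 3 lists, each gene by its probe set of largest variance. Of 30 measured adaptors and membrane partners of integrins, among them the tetraspanins Cd151, Cd9 and Cd81 and the membrane protein Cd47, 2 fell and none rose with BMP4, against 7.96% of all genes called, and 1 fell and none rose with TGF-β1, against 6.75%. At an unadjusted p under 0.05, none was higher and 6 lower with BMP4, and 6 were higher and 6 lower with TGF-β1. The medians of this list were -0.03 with BMP4 and 0.12 with TGF-β1 on the log2 scale, against 0.00 and 0.01 over all genes. Tns1, which ties β subunit tails to actin, fell by 0.71 ± 0.09 with BMP4 (adjusted p = 0.00153), and Tln2, a talin that activates integrins, fell by 0.53 (adjusted p = 0.00498). Parvb, an actin-binding partner of integrin-linked kinase, fell by 0.89 with TGF-β1 (adjusted p = 0.00518). These 3 calls held without the arrays numbered 2.

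Of 25 basement membrane genes, 1 rose and 5 fell with BMP4, and 1 rose and 4 fell with TGF-β1, beside 3.45% higher and 4.51% lower of all genes with BMP4 and 2.54% and 4.21% with TGF-β1. Their medians were -0.28 and -0.00, against 0.00 and 0.01 over all genes. Smoc2, a calcium-binding basement membrane protein, fell by 2.04 with BMP4 (4.11-fold, adjusted p = 7.23e-05) and by 0.65 with TGF-β1 (adjusted p = 0.0274). Ntn4, a netrin that binds laminin γ chains, rose by 1.44 with BMP4 (adjusted p = 0.00158). Col4a5, a type IV collagen chain, fell by 0.75 and 0.73 with the 2 factors (adjusted p = 0.00724 and 0.012), as Lama4 did.

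Nid2, a nidogen that links laminin to type IV collagen, fell by 0.85 with TGF-β1 (adjusted p = 0.0016) and differed by -0.32 with BMP4 (adjusted p = 0.102). Col18a1, the collagen that yields endostatin, fell by 0.82 with BMP4 (adjusted p = 0.00766), and Fbln2, a fibulin, rose by 0.75 with TGF-β1 (adjusted p = 0.0319). Without the arrays numbered 2, 3 of the 25 fell with BMP4, among them Ntn1, not called before, and 2 with TGF-β1. Of the genes named here, Col4a5 lost both calls, at -0.69 with BMP4 (adjusted p = 0.101) and -0.63 with TGF-β1 (adjusted p = 0.131), and the other calls held.

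Of 30 measured integrin ligands other than laminins, 1 rose and 4 fell with BMP4, beside 3.45% and 4.51% of all genes, and 5 rose and 3 fell with TGF-β1, beside 2.54% and 4.21%. The ligand medians were -0.06 and 0.10, against 0.00 and 0.01 over all genes. Fn1, fibronectin, rose by 1.12 with TGF-β1 (2.17-fold, adjusted p = 0.00515) and differed by 0.31 with BMP4 (adjusted p = 0.373). Edil3, a ligand of αv integrins, fell by 1.36 with TGF-β1 (adjusted p = 0.00346), and Vcam1, a ligand of α4 integrins, fell by 0.81 (adjusted p = 0.0171). Tgfb3, whose latent form is an αv integrin ligand, fell by 0.77 with BMP4 (adjusted p = 0.000995) and rose by 0.73 with TGF-β1 (adjusted p = 0.00201). Itga9 1460285_at had the same directions, but Itga9 1450029_s_at differed by only -0.01 with BMP4.

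Tgfb1 rose with both factors, by 1.08 with BMP4 (adjusted p = 0.018) and 1.09 with TGF-β1 (adjusted p = 0.0214). The fibrillar collagen genes Col1a2 and Col3a1 fell by 0.76 and 0.62 with BMP4 (adjusted p = 0.00538 and 0.0226). Without the arrays numbered 2, 1 of the 30 ligands fell with BMP4 and 7 rose with TGF-β1, 3 of which, Icam1, Ccn1 and Ccn2, were not called on all 9 arrays. Col1a2 and Col3a1 then lost their calls with BMP4 (adjusted p = 0.0747 and 0.0788), and the other ligands named here kept theirs.

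**Figure D4:**
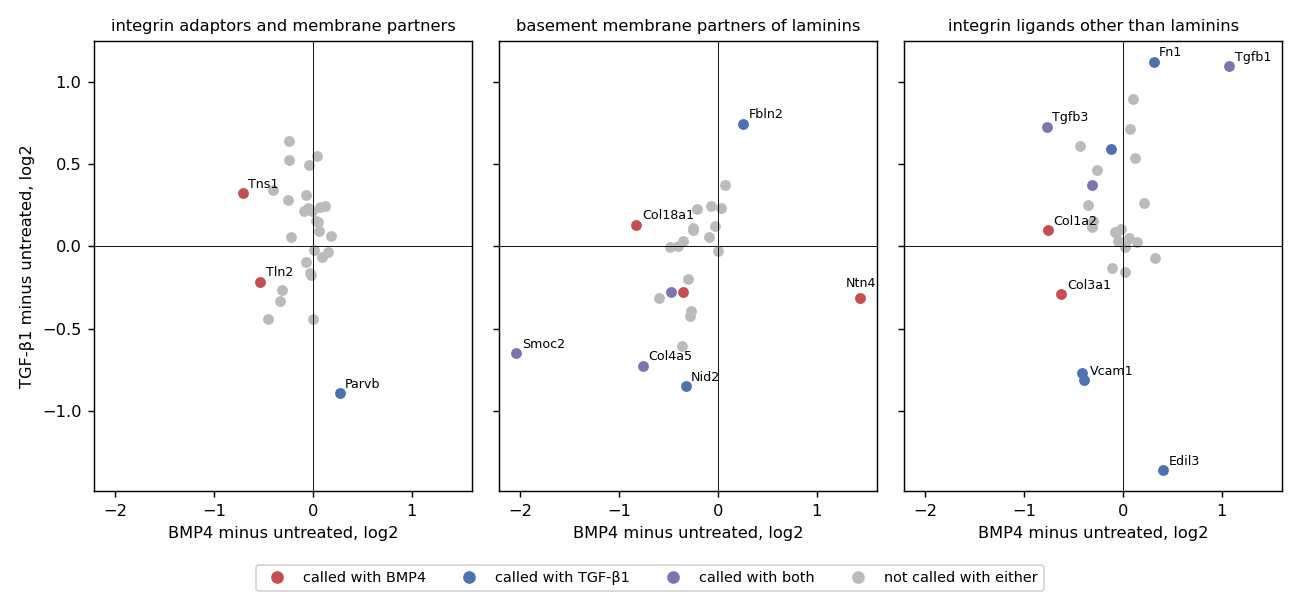
Log2 difference from untreated with BMP4 (horizontal axis) and with TGF-β1 (vertical axis) for the measured genes of the 3 lists, coloured by call, with the called genes of largest difference named; both axes share the untreated arrays. Smoc2 lies far left at -2.04, Ntn4 far right at 1.44, and Fn1 lies near the top at 1.12.

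Markers of cell types that such a dissection could hold moved with BMP4 beside the member genes, where 3.45% of all genes rose and 4.51% fell, against 2.54% and 4.21% with TGF-β1. Of 7 sclerotome markers, 4 fell with BMP4 and none was called higher by limma, 1 being higher at an unadjusted p under 0.05, and their mean ran from -0.00 to 0.48 in untreated arrays, from -0.53 to -0.48 with BMP4 and from -0.04 to 0.18 with TGF-β1. Of 8 skeletal muscle markers 1 rose and 1 fell with BMP4, and of 8 neural markers and 4 neural crest markers 1 each rose. Of 6 notochord and epithelial markers 1 rose with BMP4, the epithelial keratin Krt19, and 1 fell, the keratin Krt18. With TGF-β1 only 1 gene of these 5 lists was called, and it was again Krt19, which rose. The differences of the notochord and epithelial list ran from -1.29 to 1.61 with BMP4 and from -0.13 to 1.68 with TGF-β1. This mixed list had array means from -0.25 to -0.18 untreated, from -0.22 to -0.16 with BMP4 and from 0.04 to 0.36 with TGF-β1. Their part in the integrin and laminin differences was not tested.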

How the data were processed

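The authors hybridised 9 Affymetrix mouse genome arrays, extracted the values with RMA in GeneSpring (version not given in the sources used here) and deposited log2 values. All 45101 probe sets had a median of 0 over the 9 arrays, so the deposited log2 values are centred and hold no intensity level. Arrays were grouped by the submitters' labels, 3 a group, and every column was used. The study set the cultures up 3 separate times. After 64 control probe sets were left out, 45037 were fitted in limma 3.58.1 (R 4.3.3) with group means for all 9 arrays, 6 residual degrees of freedom and Benjamini-Hochberg adjustment over all of them, a call being an adjusted p under 0.05. The number of arrays limits the precision. The methods' unequal-variance test was an alternative, since 3 arrays give poor variances. The fit was also run on simulated data with noise drawn independently for each array. Same-numbered arrays here were correlated, so that run does not test the fit on such arrays.

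Genes were named through GEO's platform annotation: 34945 probe sets had 1 symbol, 932 several and 9160 none, and all 73 member symbols equalled the RefSeq symbol. A gene in a list was described by its probe set of largest variance. Probe sets ending in _s_at or _x_at can share probes with other transcripts. Named are all member genes with a call in any comparison, the members whose call changes with the block, the 2 uncalled genes of largest difference in each comparison with untreated, and at most 4 called genes per list and comparison. Itgb1, the leukocyte integrins, Krt18, Krt19 and Hbb-bh1 were added after their values were seen. The members and lists were chosen with earlier results of these data known.

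Same-numbered arrays were checked for pairing by the correlation of their deviations from the group means over all probe sets. It was 0.137, 0.494 and 0.277 between untreated and TGF-β1 arrays and 0.290, 0.497 and 0.377 between BMP4 and TGF-β1 arrays, which were taken as paired, and -0.05, 0.502 and 0.239 between untreated and BMP4 arrays, which were not. Arrays of different groups and different numbers correlated at -0.488 to 0.363. Untreated array 1 correlated more with TGF-β1 array 3 (0.202) and BMP4 array 3 (0.363) than with the arrays of its own number. No 2 arrays held identical values. Alternatives were the replicate number as a block, fits of 2 groups only, each array or all arrays numbered 2 left out, quantile normalization, arrays centred on their median, only probe sets above the median variance, array weights, the mean of a gene's probe sets, a 2-fold minimum and the unequal-variance test. Promoter windows came from a RefSeq table on GRCm38.p6, searched on both strands with Python 3.11.15. It held windows for 22 of the 34 genes.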

Additional observations from a re-analysis of the deposited data

How the results depend on the processing

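BMP4 raised no member under the limma alternatives or under the unequal-variance test with Benjamini-Hochberg adjustment or a 2-fold minimum. The 10 members it lowered became 5 without the arrays numbered 2, 1 with a 2-fold minimum, 0 under the unequal-variance test with Benjamini-Hochberg adjustment and 1 under that test unadjusted with a 2-fold minimum. Leaving out 1 array gave 7 to 10. For TGF-β1 against untreated, the 2 members called higher became 0 in a fit of 2 groups, 1 without the arrays numbered 2 (Itgb3 1455257_at, with both Itga9 calls lost), 1 after quantile normalization, 1 above the median variance, and 0 with a 2-fold minimum or under either unequal-variance test. Leaving out 1 array gave 0 to 2. The 3 called lower became 1 without the arrays numbered 2 and 0 with a 2-fold minimum or under either unequal-variance test, and 1 to 3 with 1 array left out. Between the factors, the 8 called higher became 0 with a 2-fold minimum or under either unequal-variance test, and 7 to 9 with 1 array left out, while the 0 called lower became 1 in the fit of 2 groups, after quantile normalization and with array weights, and 0 to 1 with 1 array left out. With the replicate block, 6 members were higher with TGF-β1 than untreated, and 17 were higher and 1 lower with TGF-β1 than with BMP4. The block changed no other count by over 1.5 times. The cause of these changes was not tested, except that a 2-fold minimum asks for more and leaving out arrays leaves fewer samples.

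Of 23 called values of the named probe sets, the block, array centring and array weights kept 23, quantile normalization 21, the probe sets above the median variance 20, the fit of 2 groups 18 and the arrays numbered 2 left out 12. The mean of a gene's probe sets kept 11 of 12. None of the called values changed sign. The 3 differences that did were uncalled and near 0: Itga9 1450029_s_at with BMP4 was -0.10 to 0.059 with 1 array left out and 0.017 without the arrays numbered 2, Lama4 1424807_at between the factors was -0.070 to 0.17 with 1 array left out, and Lamb1 1451241_at with TGF-β1 was -0.041 to 0.13 with 1 array left out and -0.068 as the mean of its probe sets.

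The number of arrays limits what passed the test: the members' median standard error was 0.11 on the log2 scale. Centred values give no signal over background.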

Other observations

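Members also differed between the arrays numbered 2 and the others, and the labels do not say whether the numbers mark the separate culture set-ups. In 50 of the 73 probe sets the arrays numbered 2 lay below the other arrays of their groups on average, with a median of -0.10 on the log2 scale. The same share was not taken over all probe sets, where these arrays also stood apart. The count can therefore not be read as particular to integrins and laminins. The lowest were Itgb3 1455257_at at -0.55, Itga1 1455251_at at -0.41 and Lamb1 1424114_s_at at -0.40, each in the same direction in all 3 groups, and the highest were Itga10 1440235_at at 0.26 and Lama4 1424808_at at 0.25, the first in 2 of 3 groups. Itga1 is a collagen and laminin receptor subunit, and Itga6, the α6 subunit of the main laminin receptors, was lower by 0.31 for 1422444_at and 0.22 for 1422445_at. These values are given without a test.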
